A study of Mus musculus with 10 samples.

Results

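The Krüppel-like factors described here are the 10 genes Klf2, Klf3, Klf4, Klf5, Klf6, Klf7, Klf9, Klf10, Klf13 and Klf16, taken by name from the expression tables, which list 21853 protein-coding genes. The study asked how glycogen stores and AMPK, the kinase that senses low cellular energy, bear on the exit of mouse embryonic stem cells (ESCs) from naïve pluripotency. Bulk RNA was sequenced from 5 lines derived from J1 ESCs, and each line gave 2 of the 10 libraries. The labels do not say whether the 2 libraries of a line came from separate cultures, so p-values measure the spread between libraries, which may be technical. All 5 lines are labelled J1 embryonic stem cells.

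Naïve ESCs were wild-type J1 cells on gelatin in medium with 15% FBS, 1000 U/ml LIF, 1 µM PD0325901 (a MEK inhibitor) and 3 µM CHIR99021 (a GSK3 inhibitor). GKO carries the genotype GYS1 KO (glycogen synthase 1), AKO the genotype AMPK KO, and DKO is labelled AMPK, GYS1 KO. The growth text names only J1 and PJ1, so that the naïve medium is taken to apply to the 3 knockout lines as J1 cells. Primed ESCs (PJ1) were wild type and grew on Matrigel with 20% KnockOut Serum Replacement, 10 ng/ml bFgf and 20 ng/ml Activin, and therefore differ from the other lines in every added factor at once. According to the methods, GKO arose from an indel in Gys1 with colonies picked from the edited pool, and the J1 line without Prkaa1, the α1 catalytic subunit, from a Cas9 plasmid together with a homology donor, with RFP-positive cells sorted. Which clones or pools were sequenced is not given in the sources used here, so a change in a knockout line cannot be told apart from a difference between clones or pools.

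Krüppel-like factors are transcription factors with 3 zinc fingers at the carboxy terminus that bind GC-rich and CACC sequences, and Sp factors are their sister branch. The fingers are nearly alike across the family, whereas the amino-terminal parts differ and recruit either coactivators or corepressors such as CtBP and Sin3. In mouse ESCs Klf2, Klf4 and Klf5 are best known for binding many of the same sites as Nanog, Esrrb and Pou5f1 and for sustaining self-renewal in part redundantly. Klf4 is a target of LIF through STAT3, and Klf2 is stabilised when MEK is inhibited.

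Promoter windows were printed for Klf2, Klf4, Klf9 and Klf6, the 4 genes that moved most between naïve and primed ESCs and have an entry. They run from 250 bases before to 50 bases after the start site and come from RefSeq on GRCm38.p6, in which 7 of the 10 genes had an entry and Klf5, Klf10 and Klf16 had none. Capitals mark matches to the motifs STAT (TTCNNNGAA), TCF/LEF (CTTTGAT and CTTTGAA), KLF (CCACCC), Sp (GGGCGG), ESRRB (TCAAGGTCA), CRE (TGACGTCA) and AP-1 (TGACTCA), searched on both strands, so that a KLF match on the other strand reads GGGTGG and an Sp match CCGCCC. The Klf2 window is chr8:72318812-72319111 on the + strand, that of Klf4 chr4:55532426-55532725 on the - strand, that of Klf9 chr19:23140976-23141275 on the + strand and that of Klf6 chr13:5861239-5861538 on the + strand.

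Klf2: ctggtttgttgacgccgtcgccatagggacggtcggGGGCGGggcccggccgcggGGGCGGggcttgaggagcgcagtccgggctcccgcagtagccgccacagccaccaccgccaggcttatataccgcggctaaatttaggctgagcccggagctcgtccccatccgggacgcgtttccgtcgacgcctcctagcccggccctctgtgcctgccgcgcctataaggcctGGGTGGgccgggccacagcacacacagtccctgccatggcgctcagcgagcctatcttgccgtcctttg

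Klf4: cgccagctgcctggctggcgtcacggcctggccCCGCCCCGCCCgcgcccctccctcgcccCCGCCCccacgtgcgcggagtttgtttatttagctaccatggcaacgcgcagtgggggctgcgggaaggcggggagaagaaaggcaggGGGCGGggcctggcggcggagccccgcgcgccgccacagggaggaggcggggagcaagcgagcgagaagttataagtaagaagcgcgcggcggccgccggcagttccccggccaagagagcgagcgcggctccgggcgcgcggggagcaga

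Klf9: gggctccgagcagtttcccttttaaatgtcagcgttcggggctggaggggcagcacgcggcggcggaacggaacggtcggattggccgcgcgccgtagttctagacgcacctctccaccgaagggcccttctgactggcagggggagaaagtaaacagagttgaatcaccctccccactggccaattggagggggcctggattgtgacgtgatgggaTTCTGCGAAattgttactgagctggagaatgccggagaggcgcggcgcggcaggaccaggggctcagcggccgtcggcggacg

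Klf6: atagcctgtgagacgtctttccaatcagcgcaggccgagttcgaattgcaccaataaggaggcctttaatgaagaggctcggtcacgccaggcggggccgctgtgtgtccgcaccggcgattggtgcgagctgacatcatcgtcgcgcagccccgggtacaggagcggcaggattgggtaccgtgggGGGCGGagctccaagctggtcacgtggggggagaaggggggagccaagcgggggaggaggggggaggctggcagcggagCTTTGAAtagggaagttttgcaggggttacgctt

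The Klf2 window held 2 Sp matches and 1 KLF match, and that of Klf4 held 4 Sp matches, of which 1 pair overlaps. At least 1 Sp match occurs in 35.66% and at least 1 KLF match in 31.48% of the 32851 RefSeq promoter windows. How many windows hold several matches was not counted, so these shares do not say whether the numbers of matches are unusual. Among the 7 genes with a window, only Klf9 held no Sp match. Klf9 held a single STAT match, 33 bases before the start site, a motif present in 8.298% of windows. Klf6 held 1 Sp match and a TCF/LEF match of the form CTTTGAA, which 5.135% of windows hold, starting at position 16 after the start site. CTTTGAT is in 3.729%, the ESRRB motif in 0.4231%, CRE in 1.79% and AP-1 in 5.202% of windows, and none of these was in the windows of the 7 genes. Of the 3 windows not printed, Klf3 held 6 Sp and 3 KLF matches, Klf7 held 1 and 3, and Klf13 held 3 and 1. A match is a string of letters and was not tested for binding.

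Expression was given as TPM, a share of transcripts scaled to a fixed sum, which corrects for transcript length so that levels of different genes in a library can be set side by side. TPM retains no read depth, and neither counting intervals nor detection limits can be derived. Between 10537 and 11113 genes reached 1 TPM in a library, and the listed TPM summed to 500162 to 578952. Library labels were checked with Gys1 and Prkaa1. Prkaa1 measured 15.5 and 16.6 TPM in naïve ESCs, 12.2 and 12.0 in GKO, 7.24 and 6.94 in AKO, 2.30 and 2.04 in DKO, and 13.4 and 13.7 in the primed libraries. Gys1 measured 11.5 and 10.8 TPM in naïve ESCs, 9.70 and 9.98 in GKO, 12.7 and 12.2 in AKO, 12.1 and 11.7 in DKO, and 13.6 and 14.3 in the primed libraries. The RNA of Gys1 need not fall with an indel in its coding sequence. Prkaa2, the gene of the other catalytic subunit of AMPK, was measured in every line. It was at 2.4 TPM in both naïve libraries, 2.7 and 2.4 in AKO and 3.3 and 3.1 in DKO. GKO had 3.3 in both libraries, and primed ESCs had 8.3 and 9.4. The summed level of 6 naïve markers was 856 to 1007 TPM in the 8 libraries in naïve medium and 3.19 and 3.43 in primed ESCs, where Dppa3 was listed at 0. The summed level of 6 primed markers was 53.5 to 88.0 TPM in those 8 libraries and 387 and 430 in primed ESCs. In primed ESCs it came mostly from Dnmt3b (222 and 254) and Zic2 (86.9 and 110). T went the other way, from 15.7 and 14.5 TPM in naïve ESCs to 8.97 and 0.786 in primed ESCs. Fgf5 also differed between the primed libraries, at 10.7 and 0.447 TPM. The median absolute log2 difference between the 2 libraries of a line, over the 12060 genes tested, was 0.06 to 0.07 in the lines in naïve medium and 0.13 in primed ESCs, and over the 10 Klf genes it was 0.04 to 0.10 against 0.34.

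In naïve ESCs the order of the family by mean TPM was Klf2, Klf4, Klf5, Klf9, Klf16, Klf3, Klf10, Klf13, Klf6 and Klf7, and no neighbouring genes in this order overlapped between libraries. AKO kept that order. In GKO Klf6 passed Klf13, and in DKO Klf3 additionally passed Klf16, although the libraries of Klf3 and Klf16 overlapped there. In primed ESCs the order was Klf5, Klf6, Klf16, Klf10, Klf2, Klf13, Klf3, Klf9, Klf7 and Klf4, and each of the first 6 neighbouring pairs overlapped. The 10 genes therefore had 2 leading members in naïve medium and no clear leader in primed medium. The primed means were not alike, and ran from 36.7 TPM for Klf5 to 2.18 TPM for Klf4.

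**Figure D1:**
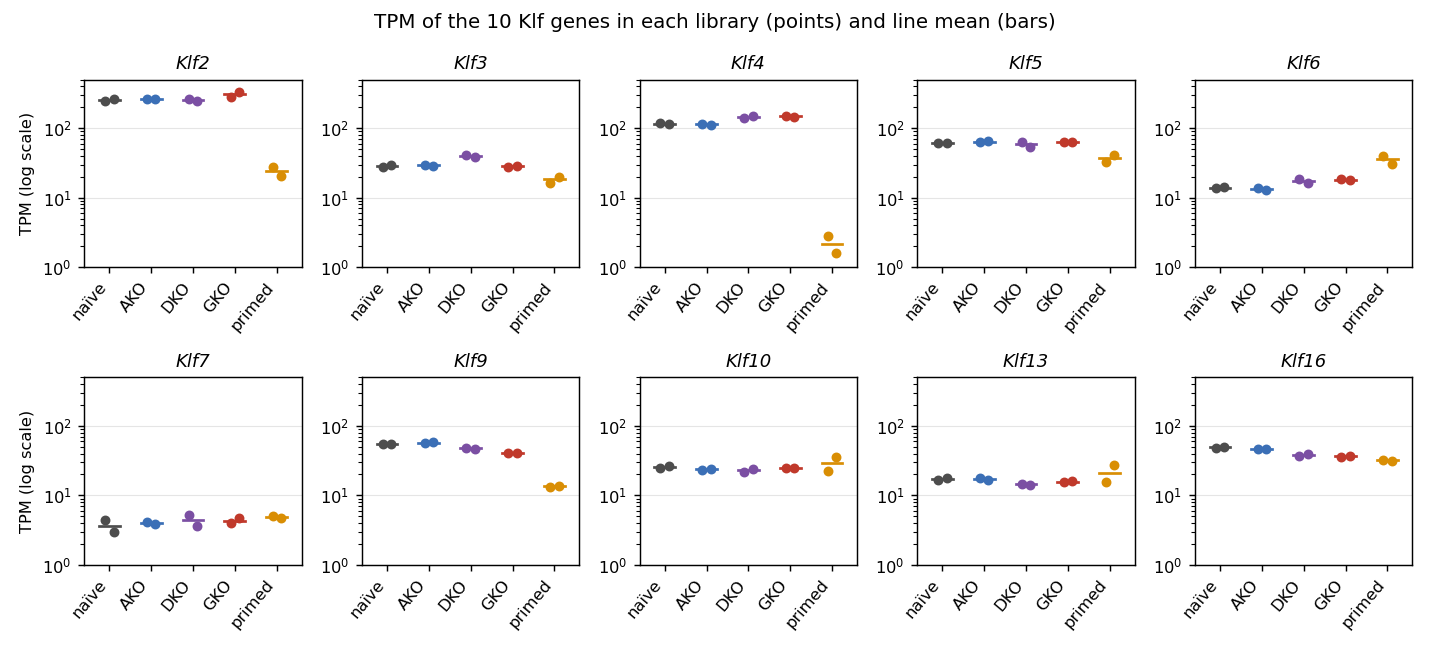
TPM (log axis) of each of the 10 Klf genes in each of the 10 libraries; points are libraries and bars are line means of 2 libraries. Klf2, Klf4 and Klf9 are lower in both primed libraries than in all others, whereas Klf6 is higher in both.

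The summed TPM of the 10 genes was 618 and 639 in naïve ESCs, 637 and 628 in AKO, 657 and 638 in DKO, 664 and 711 in GKO, but 209 and 227 in the primed libraries. Klf2 made up 39.3% to 46.6% of the sum in the 8 libraries in naïve medium and 13.1% and 9.13% in primed ESCs. Klf4 made up 17.8% to 23.7% and then 1.33% and 0.702%. In primed ESCs the largest share belonged to Klf6 in replicate 1 (19.3%, 13.5% in replicate 2) and to Klf5 in replicate 2 (17.9%, 15.8% in replicate 1).

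**Figure D2:**
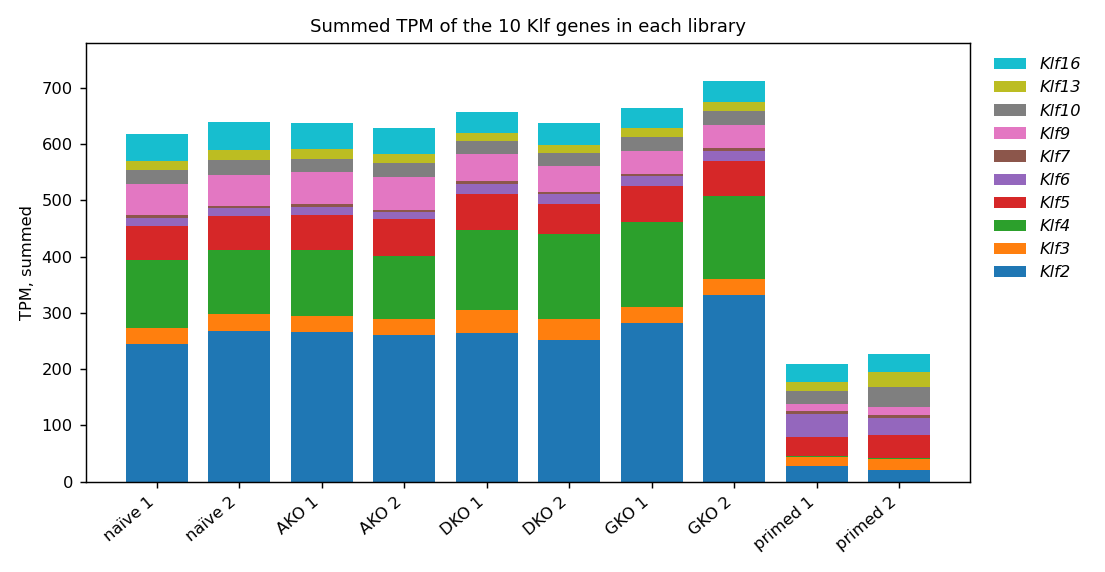
Stacked TPM of the 10 Klf genes (linear axis from 0) in each of the 10 libraries. Klf2 and Klf4 fill most of the height in the 8 libraries in naïve medium, where the sum lies between 618 and 711 TPM, and little of it in the primed libraries, where it is 209 and 227.

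Changes between lines were tested on log2(TPM + 1) with limma, in 1 fit of all 10 libraries, for the 12060 genes that reached 1 TPM in no fewer than 2 libraries, a filter that all 10 Klf genes passed. A log2 change is the difference of line means on that scale with its standard error (SE), and adjusted p is the Benjamini-Hochberg value over all genes tested, with 0.05 as the threshold. Folds are ratios of mean TPM without 1 added. They therefore differ from the log2 change, most for genes at low TPM. All comparisons with naïve ESCs share the same 2 naïve libraries. Gene positions below are from GENCODE on GRCm39 and cannot be set against the promoter coordinates above, which are on another build. A lower share of expressing cells and less RNA per cell cannot be told apart in bulk RNA.

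Between primed and naïve ESCs 7 of the 10 Klf genes passed the threshold, 6 lower and 1 higher in primed ESCs. Over all genes 80.0% passed, 42.5% lower and 37.4% higher, so the number of Klf genes called is not unusual. The median log2 change of the 10 genes was -0.61, against -0.05 over all genes, and the median absolute change was 0.69 against 0.55. With an additional minimum of 1 on the log2 scale, 4 of the 10 passed, against 27.8% of all genes.

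Klf4, a reprogramming factor and activator of naïve genes (GRCm39 chr4:55527139-55532528, - strand), measured 121 and 113 TPM in the naïve libraries, compared with 2.78 and 1.59 TPM in the primed ones. The mean was 53.6-fold lower in primed ESCs. With 1 TPM added, the log2 change of Klf4 was -5.24 (SE 0.14, limma adjusted p 2.22e-09), smaller than that fold implies. No other member changed as much, and its absolute change exceeded that of 99.64% of the genes tested. Klf2, which supports naïve ESCs together with Klf4 (chr8:73072726-73075502, + strand), measured 245 and 268 TPM in the naïve libraries, compared with 27.3 and 20.7 TPM in the primed ones. Its mean was 10.7-fold lower (log2 -3.37, SE 0.12, adjusted p 1.28e-08). Klf2 thus remained above 20 TPM in both primed libraries while Klf4 fell to the bottom of the family.

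Klf5, an activator needed in the early embryo and in ESC self-renewal (chr14:99536086-99552473, + strand), measured 61.5 and 61.7 TPM in the naïve libraries, compared with 33.0 and 40.5 TPM in the primed ones. The log2 change was -0.74 (SE 0.09, adjusted p 7.22e-05), a mean 1.68-fold lower without overlap of the libraries. Klf5 hence kept a larger part of its naïve level than Klf2 or Klf4, and in primed ESCs it had the highest mean of the 10, although Klf6 was above it in replicate 1. The median gene of chromosome 14 was higher by 0.54 in the same comparison, that of all other chromosomes -0.07.

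Klf9, a member of the Sin3-binding group that responds to steroid and thyroid hormones (chr19:23118187-23148497, + strand), measured 55.7 and 55.5 TPM in the naïve libraries, compared with 13.4 and 13.6 TPM in the primed ones. Its mean was 4.11-fold lower (log2 -1.96, SE 0.04, adjusted p 8.56e-10). The median gene of chromosome 19 changed by -0.45 in primed ESCs, against -0.04 elsewhere, and Klf9 lay 1.52 below the median of its chromosome. Klf16, of the same Sin3-binding group (chr10:80402954-80413712, - strand), measured 48.6 and 49.4 TPM in the naïve libraries, compared with 32.8 and 31.6 TPM in the primed ones (log2 -0.59, SE 0.05, adjusted p 2.00e-06). Klf3, a repressor that recruits CtBP (chr5:64959875-64990261, + strand), went from 27.9 and 29.7 TPM to 16.5 and 20.1 TPM (log2 -0.63, SE 0.08, adjusted p 8.76e-05). The primed libraries of both genes lay below their naïve libraries.

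Klf6, an activator induced by growth factors (chr13:5911481-5920393, + strand), was the only Klf gene of the 10 called higher in primed ESCs. It measured 13.9 and 14.1 TPM in the naïve libraries, compared with 40.4 and 30.7 TPM in the primed ones, a mean 2.54-fold higher (log2 1.27, SE 0.11, adjusted p 5.63e-06). Its libraries did not overlap. Leaving out either primed library gave a log2 change of 1.08 to 1.46.

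Klf7, an activator known from neurons (chr1:64068606-64161508, - strand), measured 4.36 and 2.97 TPM in the naïve libraries, compared with 5.00 and 4.79 TPM in the primed ones, a log2 change of 0.35 (SE 0.16, adjusted p 0.0752). Its change was 0.57 and past the threshold without naïve replicate 1 (adjusted p 0.0161) and 0.14 without naïve replicate 2 (adjusted p 0.479). Klf10, a TGF-beta inducible repressor that binds Sin3 (chr15:38291703-38300959, - strand), measured 24.5 and 26.6 TPM in the naïve libraries, compared with 22.7 and 36.0 TPM in the primed ones (log2 0.16, SE 0.17, adjusted p 0.399). Klf13, also of the Sin3-binding group (chr7:63536099-63588663, - strand), went from 16.5 and 17.6 TPM to 15.4 and 27.2 TPM (log2 0.25, SE 0.20, adjusted p 0.260). The primed libraries of Klf10 and Klf13 lay on either side of the naïve ones, and leaving out a primed library decided the direction. Without primed replicate 1 the log2 changes were 0.48 and 0.64, both past the threshold, and without primed replicate 2 they were -0.16 and -0.14. The same 2 libraries also differed in primitive endoderm markers, whose sum over 6 genes was 7.13 TPM in primed replicate 1 and 0.910 TPM in replicate 2, and in fibroblast markers (9.10 and 15.3 TPM over 6 genes, Dcn listed at 0 in both). Their part in the Klf values was not tested.

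**Figure D3:**
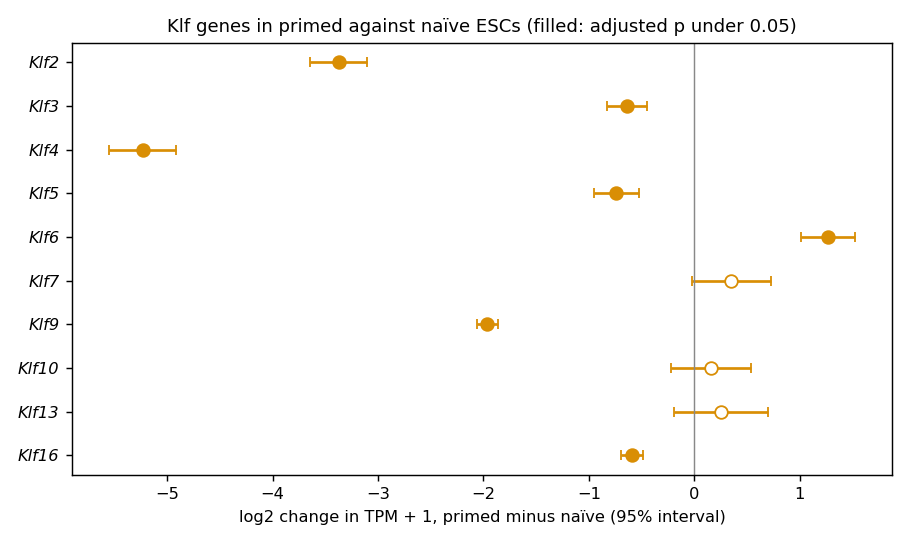
Log2 change in TPM + 1 of the 10 Klf genes in primed minus naïve ESCs with 95% intervals from the limma fit; filled points passed an adjusted p of 0.05. Klf4 (-5.24), Klf2 (-3.37) and Klf9 (-1.96) lie far to the left and Klf6 (1.27) to the right.

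The other Klf genes of the tables were described for comparison. Of 7 such genes, 4 were tested and 3 (Klf1, Klf14 and Klf17) were below that filter. Klf8, a CtBP-binding repressor related to Klf3, measured 41.4 and 40.7 TPM in the naïve libraries, compared with 2.07 and 2.31 TPM in the primed ones (log2 -3.72, adjusted p 1.30e-10). Klf15, a regulator of metabolism, also fell (log2 -2.53, adjusted p 6.74e-07), whereas Klf12, a repressor of the Klf3 and Klf8 group, rose (1.48, adjusted p 8.29e-07) and so did Klf11 (0.38, adjusted p 0.0164). Sp factors divided evenly, with 3 higher and 3 lower of 7 tested, Sp5 falling by 2.82 and Sp8 rising by 2.44 on the log2 scale.

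The pathways that surround the Klf genes were counted with lists, beside 37.4% of all genes higher and 42.5% lower in primed ESCs. Of 12 partners in the naïve network, 11 were lower and 1 higher in primed ESCs (median log2 change -3.69), led by Zfp42 (-8.72), Esrrb (-7.20), Tfcp2l1 (-6.48) and Tbx3 (-6.12). The higher one was Sall4 (0.30, adjusted p 0.000177). Of 10 genes of the LIF and STAT3 pathway, 9 were lower and none higher (median -2.15), among them Bcl3 (-4.34), Socs3 (-4.16), Pim1 (-3.65) and the receptor gene Lifr (-3.27). Targets of ERK signalling divided into 4 higher and 6 lower of 11 tested, with Dusp4 rising by 2.79 and Spry4 falling by 4.14. Wnt targets gave 3 higher and 4 lower of 7, immediate-early genes 5 and 4 of 11, and TGF-beta and Activin response genes 2 and 6 of 9. Among partners of the Klf proteins, cofactors (CtBP, Sin3 and Hdac genes, Fhl3 and Wdr5) gave 3 higher and 5 lower of 8. Wdr5 fell by 1.42. Ubiquitin ligases gave 0 higher and 5 lower of 7.

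The genes whose pattern was most like that of Klf2, Klf4 and Klf5 were ranked by the root mean square difference in log2(TPM + 1) relative to the naïve mean, over the 8 libraries of the other 4 lines and 8022 genes with at least 5 TPM in naïve ESCs. Nearest to Klf2 were Spic (0.14), Pim1 (0.19) and 1700061G19Rik (0.20), and nearest to Klf4 were Cobl (0.27), Zfp936 (0.27) and Pramef12 (0.28). Nearest to Klf5 were Tgoln1 (0.07), Gcfc2 (0.08) and Efr3a (0.09). The nearest Klf gene was Klf8 for both Klf2 (rank 24, 0.30) and Klf4 (rank 87, 0.85), and Klf3 for Klf5 (rank 1522, 0.27). Among the 10 genes themselves the nearest to Klf2 was Klf9 (rank 324) and the nearest to Klf4 was Klf2 (rank 118). The 8 libraries share the naïve reference, and the measure is a description. With 1 TPM added, a gene that falls to near 0 can rank near without a like fold change. The means of Klf2 and Klf4 were 10.7-fold and 53.6-fold lower in primed ESCs. Mean TPM went from 10.1 to 0.032 for Spic and from 46.2 to 2.76 for Pim1, and 1700061G19Rik had 0 in primed ESCs. Cobl went from 59.8 to 0.894, Zfp936 from 28.9 to 0.0955 and Pramef12 from 40.4 to 0.021. The genes nearest to Klf5 stayed at 4.24 TPM or more.

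In GKO against naïve ESCs, 3 of the 10 Klf genes passed the threshold, Klf6 higher and Klf9 and Klf16 lower. Over all genes 51.7% passed, 24.7% higher and 27.1% lower. The median log2 change was 0.01 for the Klf genes and -0.01 for all genes, the median absolute change 0.23 and 0.24, and 4 of the 10 had an unadjusted p under 0.05, against 57.9% of all genes. No Klf gene changed by 1 on the log2 scale.

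Klf9 was at 41.3 and 40.6 TPM in GKO, against 55.7 and 55.5 TPM in naïve ESCs, a log2 change of -0.43 (SE 0.04, adjusted p 7.76e-05). The median gene on chromosome 19, over 394 tested genes with a position, changed by -0.40, against a median of -7.46e-05 elsewhere, so that Klf9 lay 0.04 below it. Klf16 was at 36.1 and 37.1 TPM in GKO and 48.6 and 49.4 TPM in naïve ESCs (log2 -0.41, SE 0.05, adjusted p 0.000112), and the median gene of its chromosome 10 changed by -0.02. The fall of Klf9 was thus close to the median of its chromosome and that of Klf16 was not. The DNA content of these chromosomes was not measured, and its part in the values was not tested.

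Klf6 was at 18.4 and 17.8 TPM in GKO and 13.9 and 14.1 TPM in naïve ESCs (log2 0.35, SE 0.11, adjusted p 0.0287). The call was lost when any one naïve or GKO library was left out, with adjusted p from 0.0848 to 0.117, and without a filter on low values (0.111). Klf4 was at 152 and 147 TPM in GKO, above both naïve libraries (log2 0.35, SE 0.14, adjusted p 0.0605), and Klf2 was at 282 and 331 TPM, also above both (log2 0.25, SE 0.12, adjusted p 0.103). Neither passed in the fit of all lines, whose spread for these genes includes the primed libraries. In a fit without the primed libraries Klf4 (adjusted p 0.000326) and Klf2 (0.0209) passed, giving 5 of the 10 called, against 60.4% of all genes. Leaving out either primed library alone also gave 5 of 10.

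Klf5 was at 62.4 and 63.4 TPM in GKO, a log2 change of 0.03 (95% interval -0.19 to 0.24), while the median gene on chromosome 14 was higher by 0.47 and that elsewhere was at -0.02. Klf5 therefore lay 0.44 below the median of its chromosome. Klf3 was at 28.1 and 28.8 TPM in GKO (log2 -0.02, SE 0.08), and its libraries overlapped those of naïve ESCs. Klf7, Klf10 and Klf13 changed by 0.20, -0.05 and -0.10 with intervals that include 0 (-0.17 to 0.58, -0.43 to 0.33 and -0.55 to 0.35).

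**Figure D4:**
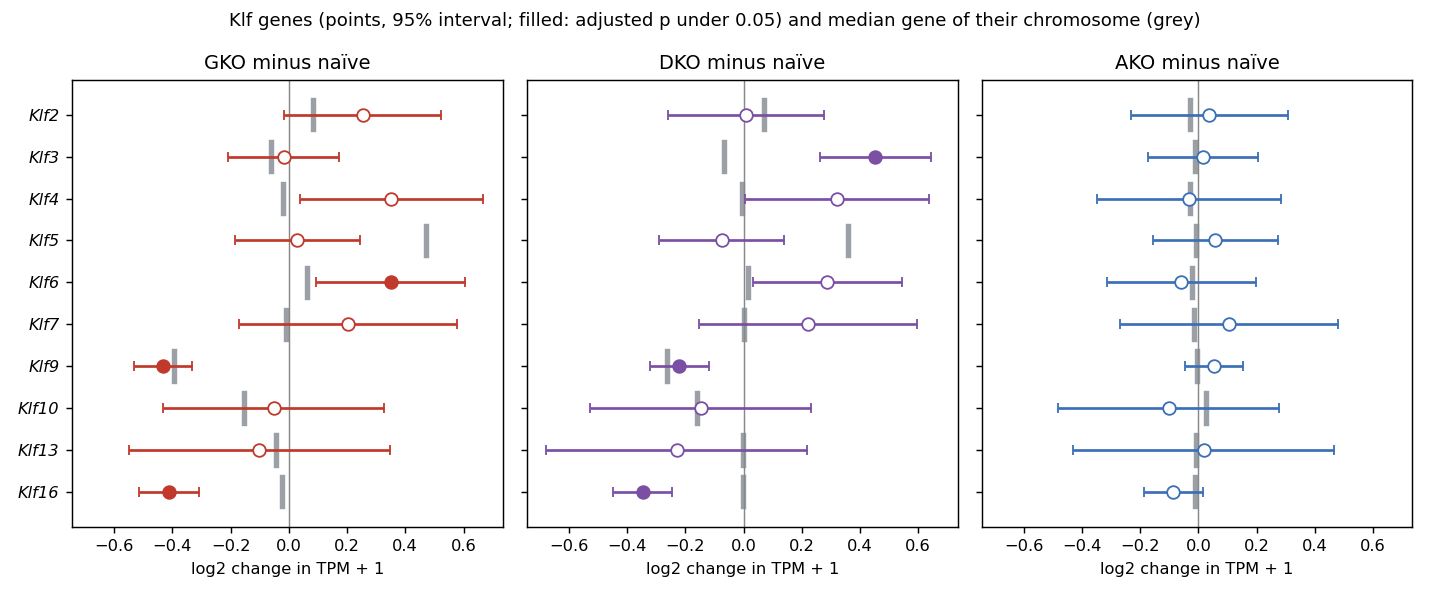
Log2 change in TPM + 1 of the 10 Klf genes in GKO, DKO and AKO minus naïve ESCs (points, with 95% intervals, filled where the adjusted p was under 0.05) and the median log2 change of all tested genes on the chromosome of each gene (grey bars). Klf9 lies on the bar of chromosome 19 in GKO and DKO, and Klf10 on that of chromosome 15 in DKO. Klf5 lies left of that of chromosome 14 in GKO and DKO.

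In DKO against naïve ESCs, again 3 of the 10 passed, Klf3 higher and Klf9 and Klf16 lower, against 46.0% of all genes (21.7% higher and 24.3% lower). The median log2 change was -0.03 against -0.01 over all genes, the median absolute change 0.23 against 0.21, and 5 of the 10 had an unadjusted p under 0.05, against 53.1% of all genes. Klf3 reached 41.4 and 38.2 TPM in the DKO libraries, compared with 27.9 and 29.7 TPM in the naïve ones, a mean 1.38-fold higher (log2 0.45, SE 0.08, adjusted p 0.00233), whereas the median gene of its chromosome 5 changed by -0.07. Klf9 was at 48.9 and 46.3 TPM (log2 -0.22, SE 0.04, adjusted p 0.00344), beside a median of -0.27 on chromosome 19, and its change was -0.13 after quantile normalization. Klf16 was at 37.3 and 39.3 TPM (log2 -0.35, SE 0.05, adjusted p 0.000357). None of the libraries of these 3 genes overlapped those of naïve ESCs.

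Klf4 was at 142 and 151 TPM in DKO, above both naïve libraries (log2 0.32, SE 0.14, adjusted p 0.0890), and Klf6 was at 18.3 and 16.3 TPM, also above both (log2 0.29, SE 0.11, adjusted p 0.0659). Klf13, at 14.8 and 14.0 TPM, was below both (log2 -0.23, SE 0.20, adjusted p 0.373). Without the primed libraries all 3 passed, with adjusted p of 0.000625, 0.00618 and 0.0117, and 6 of the 10 were called, against 54.8% of all genes. Klf2, at 264 and 251 TPM, overlapped the naïve libraries (log2 0.01, 95% interval -0.26 to 0.28). Klf5, at 63.1 and 54.1 TPM, changed by -0.08 (95% interval -0.29 to 0.14), beside a median of 0.36 on chromosome 14. Klf7 at 5.20 and 3.67 TPM and Klf10 at 21.6 and 24.3 TPM changed by 0.22 and -0.15 and did not pass. The median gene on chromosome 15, which holds Klf10, changed by -0.16 in DKO and -0.15 in GKO, against -0.003 elsewhere in both. Klf10 lay 0.01 above that median in DKO and 0.10 above it in GKO.

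In AKO against naïve ESCs none of the 10 Klf genes passed by limma, and none had an unadjusted p under 0.05. Over all genes 0.224% passed and 10.2% had an unadjusted p under 0.05, so that a count of 0 in 10 is near the background. The Klf changes ran from -0.10 to 0.10, with a median absolute value of 0.06 against 0.07 over all genes. Klf2 was at 266 and 260.0 TPM in AKO, Klf4 at 116 and 112, Klf5 at 63.6 and 64.8, Klf9 at 57.0 and 58.5, and Klf16 at 46.2 and 46.0. Klf3 was at 29.2 and 29.0 TPM, Klf6 at 14.0 and 12.8, Klf7 at 4.07 and 3.85, Klf10 at 23.1 and 24.3 and Klf13 at 18.0 and 16.6. The 95% interval was narrowest for Klf9 (-0.05 to 0.15) and Klf16 (-0.19 to 0.02) and wide enough for Klf13 (-0.43 to 0.47) to hold changes as large as those of the other knockout lines. The chromosome medians in AKO lay between -0.03 and 0.03 for the chromosomes of all 10 genes.

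Loss of Gys1 was also read between the 2 lines labelled AMPK KO, as DKO against AKO. These lines also differed in Prkaa1 RNA, which was lower in DKO (log2 -1.35, adjusted p 3.39e-06). Gys1 genotype and this Prkaa1 difference cannot be told apart here. There 4 of the 10 passed, against 46.3% of all genes, with Klf3 (log2 0.44, SE 0.08, adjusted p 0.00281) and Klf6 (0.35, SE 0.11, adjusted p 0.0327) higher and Klf9 (-0.27, SE 0.04, adjusted p 0.00110) and Klf16 (-0.26, SE 0.05, adjusted p 0.00159) lower. The call of Klf6 was lost when any one library of naïve, AKO, DKO or GKO was left out, with adjusted p from 0.0504 to 0.179, and without a filter on low values (0.123). Without the primed libraries Klf4 (0.35, adjusted p 0.000377) and Klf13 (-0.25, adjusted p 0.00831) passed as well, making 6 of 10, against 55.2% of all genes. The median of chromosome 19 was -0.26 in this comparison too.

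GKO and DKO were compared directly, and 2 of the 10 differed, against 43.5% of all genes. Klf3 was lower in GKO than in DKO (log2 -0.47, SE 0.08, adjusted p 0.00222), as was Klf9 (log2 -0.21, SE 0.04, adjusted p 0.00484), for which the median gene on chromosome 19 differed by -0.11. Without the primed libraries Klf2 was also called, higher in GKO (0.25, adjusted p 0.0269), making 3 of 10, against 53.4% of all genes. Klf16 differed by -0.06 (95% interval -0.17 to 0.04), Klf4 by 0.03 (95% interval -0.28 to 0.35) and Klf6 by 0.06 (95% interval -0.19 to 0.32).

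Whether loss of Gys1 acted differently with and without the AMPK KO genotype was tested as the interaction, that is GKO minus naïve less DKO minus AKO. AKO and DKO still held RNA of Prkaa1 and Prkaa2, so this is not a comparison with cells shown here to lack AMPK. As DKO and AKO differed in Prkaa1 RNA, Prkaa1 itself had an interaction of 0.97 (adjusted p 0.000291). Only Klf3 passed among the 10, against 25.8% of all genes. Klf3 changed by -0.02 in GKO against naïve ESCs and by 0.44 in DKO against AKO, a difference of -0.45 (SE 0.12, adjusted p 0.0231). The call was lost without naïve replicate 2, either AKO library, DKO replicate 1 or either GKO library (adjusted p from 0.0583 to 0.0851) and without a filter on low values (0.0891). Klf9 (-0.16, adjusted p 0.0956), Klf16 (-0.15, adjusted p 0.118) and Klf2 (0.28, adjusted p 0.247) did not pass.

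The naïve partners of the Klf genes were followed in the knockout lines as well. The shares over all genes were 24.7% higher and 27.1% lower in GKO and 21.7% and 24.3% in DKO. In AKO 0.224% of all genes passed. The list counts here and below were not tested against these shares. In GKO 8 of 12 were higher and none lower (median log2 change 0.23), led by Dppa3 (0.59), Sall4 (0.47), Nr0b1 (0.42) and Esrrb (0.37). In DKO 8 of 12 were higher and none lower (median 0.38), led by Dppa3 (1.35), Sall4 (0.61), Tbx3 (0.48) and Esrrb (0.42), and in AKO none passed. Klf4 lay above both naïve libraries in GKO and DKO, and Klf2 in GKO, but neither passed in the fit of all lines. Their adjusted p was 0.0605 and 0.0890 for Klf4 and 0.103 for Klf2. Lack of overlap between 2 and 2 libraries also occurred in AKO without a call, for Klf5, Klf9, Klf10 and Klf16. Its share over all genes was not determined. Lifr, the LIF receptor gene, was lower in GKO (-0.70, adjusted p 2.33e-05) and in DKO (-0.27, adjusted p 0.00449), and the LIF and STAT3 list gave 1 higher and 2 lower of 10 in GKO, 0 and 2 in DKO and none in AKO.

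For the counts that follow, the shares of all genes were 24.7% higher and 27.1% lower in GKO and 21.7% and 24.3% in DKO. Among ERK targets, 2 were higher and 4 lower of 11 in GKO, 1 and 2 in DKO and 0 and 1 in AKO. Egr1, also an immediate-early gene, fell by 2.08 on the log2 scale in GKO (adjusted p 0.00138), and Spry2 rose by 1.48 in GKO and 1.28 in DKO. Immediate-early genes gave 2 higher and 3 lower of 11 in GKO, 2 and 1 in DKO and none in AKO, with Btg2 rising by 1.27 and 1.59. Wnt targets gave 2 higher and 0 lower of 7 in GKO (Cdx1 1.12, Axin2 0.46), 0 and 2 in DKO (Lef1 -0.45, Nkd1 -0.42) and none in AKO.

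Beside the next counts, 24.7% of all genes were higher and 27.1% lower in GKO, and 21.7% and 24.3% in DKO. Cofactors of Klf proteins gave 1 higher (Wdr5, 0.50) and 1 lower (Hdac1, -0.30) of 8 in GKO. DKO gave 1 and 3, including Ctbp1 at -0.44. Ubiquitin ligases of Klf proteins gave 1 higher (Wwp1, 0.36) and 2 lower of 7 in GKO. In DKO 1 was higher (Fbxw7, 0.47) and 3 lower, and neither list had a call in AKO. Of the other Klf genes Klf8 was higher in GKO, at 50.6 and 46.9 TPM (log2 0.24, adjusted p 0.00857), and lower in DKO, at 31.9 and 31.3 TPM (log2 -0.37, adjusted p 0.00114), with an interaction of 0.55 (adjusted p 0.00218). GKO against DKO, Klf8 differed by 0.61 (adjusted p 8.60e-05), in the direction opposite to Klf3. Klf12 rose in both lines (0.52 in GKO and 0.30 in DKO), Klf15 was lower in GKO (-0.58, adjusted p 0.0166), and Sp factors gave 1 higher (Sp6, 0.64) and 1 lower (Sp4, -0.40) of 7 in GKO and 1 higher (Sp6, 0.51) in DKO. No other Klf or Sp gene was called in AKO.

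Markers of other cells were summed beside these changes. For their counts, too, the shares of all genes were 24.7% higher and 27.1% lower in GKO and 21.7% and 24.3% in DKO. Over 7 trophectoderm markers the sum was 32.2 in both naïve libraries, 28.5 and 30.6 in AKO, 37.3 and 38.8 in DKO, 41.5 and 41.0 in GKO and 39.4 and 21.3 TPM in primed ESCs, and 3 of 4 tested were higher in GKO and in DKO. Eomes, the remaining tested trophectoderm gene, was not called for GKO (log2 -0.20, adjusted p 0.713) or for DKO (-0.28, adjusted p 0.614). Mean TPM of Eomes was 20.1 for naïve cells, 17.3 for GKO and 16.4 for DKO. For each of these lines that was the highest mean among the trophectoderm markers. Over 6 primitive endoderm markers the sum was 0.903 to 1.20 TPM in naïve ESCs, AKO and DKO and 2.14 and 2.10 in GKO. Over 6 fibroblast markers it was 2.33 to 3.37 TPM in naïve ESCs, AKO and DKO and 7.97 and 9.22 in GKO, mostly from Thy1 (7.14 and 8.48), while Postn and Dcn were listed at 0 in GKO. Primed markers gave 1 of 5 tested higher in GKO, and 1 higher and 2 lower in DKO. Their part in the Klf values was not tested.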

How the data were processed

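RNA was measured in 10 libraries of 5 lines, grouped by their labels. Per the methods and labels, the authors trimmed reads with Trim Galore 0.6.6, aligned them with STAR 2.7.9a, as the submitters' processing notes give it, and estimated expression with RSEM 1.3.3, and they deposited TPM per protein-coding gene. The sources differ on the genome build, the STAR version and the library kit. TPM keeps no depth, and a strong rise of one gene lowers the others slightly.

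From the deposited TPM, log2(TPM + 1) was tested with limma 3.58.1 (R 4.3.3), with a mean for each line, an intensity trend and Benjamini-Hochberg adjustment over 12060 genes that reached 1 TPM in no fewer than 2 libraries. Fold changes on this scale understate changes of low genes. All 10 Klf genes are named. The lists were other Klf genes, Sp factors, naïve partners, LIF and STAT3, ERK, Wnt, immediate-early, TGF-beta and Activin, cofactors, ubiquitin ligases and cell markers. Of each, at most 4 called genes with the largest change are named. Members, lists and tests were chosen with earlier results of these data known. Sall4 and Fgf5 in primed ESCs and Eomes in GKO and DKO were named beyond that rule, after their values were seen. Chromosomes were assigned to 11596 of the 12060 genes by symbol from GENCODE on GRCm39, an addition made after the values were seen. The TGF-beta and Activin list is not reported here for the knockout lines. The fit was also run on simulated data with the same spread of a gene in every line, and the outcome is not reported here. In the real data the primed libraries varied more, so that run does not show how the fit performs on them. Alternatives covered the pseudocount (0.1), filters on low values, scaling, the trend, a minimum fold change, a replicate block, the libraries in the fit and each library left out. Same-numbered replicates were not paired by any label, and their deviations correlated from -0.13 to 0.08.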

Additional observations from a re-analysis of the deposited data

Results flagged for a closer look

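Klf3 was singled out because its response to loss of Gys1 differed with the AMPK genotype in a test of the difference itself. The interaction was -0.45 on the log2 scale (SE 0.12, limma adjusted p 0.0231), from 28.1 and 28.8 TPM in GKO against 27.9 and 29.7 in naïve ESCs, and from 41.4 and 38.2 TPM in DKO against 29.2 and 29.0 in AKO. Both DKO libraries were above the other 6 libraries in naïve medium. Of all genes 25.8% passed this test, and Klf8 did so with 0.55 (adjusted p 0.00218). The Klf3 call was lost without naïve replicate 2, DKO replicate 1, either AKO or either GKO library (adjusted p from 0.0583 to 0.0851) and without a filter on low values (0.0891). The cause was not tested. AMPK genotype, clone and the lower Prkaa1 RNA of DKO than of AKO cannot be told apart.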

How the results depend on the processing

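Of 138 recomputed counts of called Klf genes, 116 stayed within 1.5 times the value in the report and 22 did not. A further 883 recomputed values were log2 changes and the largest absolute Klf change in AKO. Of these, 795 stayed the same, 37 lost the call, 39 gained it, 11 reversed and 1 moved. For a log2 change, the same means that direction and side of the threshold were kept. For the AKO value it means a shift smaller than the largest SE. A minimum log2 change of 1 left 4 genes in primed ESCs and 0 in GKO against naïve ESCs, DKO against naïve ESCs, GKO against DKO, DKO against AKO and the interaction. Quantile normalization gave 5 in GKO, with log2 changes of 0.050 for Klf3 and 0.0020 for Klf10. A fit without the primed libraries gave 5 in GKO and 6 in DKO, and a fit of only the lines compared gave 6 in DKO and 2 in the interaction, which had 0 without a filter on low values. Leaving out 1 library at a time gave 2 to 5 in GKO, 3 to 6 in DKO and 0 to 1 in the interaction. The log2 changes then ran from -0.16 to 0.48 for Klf10 and from -0.14 to 0.64 for Klf13 in primed ESCs, from -0.061 to 0.027 for Klf3, -0.012 to 0.42 for Klf7 and -0.11 to 0.0038 for Klf10 in GKO, and from -0.056 to 0.072 for Klf2 and -0.19 to 0.033 for Klf5 in DKO. With a lone library, a line was assumed to vary like the others. The causes of these shifts were not tested.

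With the replicate block, 4 Klf genes were called in DKO, where Klf6 was added, and 7 in primed ESCs, 3 in GKO, 0 in AKO, 2 in GKO against DKO, 4 in DKO against AKO and 1 in the interaction. Read depth cannot be recovered from TPM, so precision rests on the 2 libraries per line.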
